A study of Homo sapiens with 16 samples.

Results

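A subset of the H3K27ac regions changed by OGT inhibition lay inside genes that code for no protein, and these 635 regions of 7130 listed ones are described here. A region was a member when no base of it lay within 2500 bp of the 5′ end of any annotated gene, its centre fell outside every exon, and its centre was in a non-coding gene and in no protein-coding gene. LX-2, the human stellate cell line that the study used as its model of the liver myofibroblast, was given DMSO as vehicle (control) or OSMI-1, at 50 µM and over 24 h. OSMI-1, called OGTi below, blocks OGT, which attaches the sugar O-GlcNAc to nuclear and cytoplasmic proteins. Of the 16 samples, 8 were H3K27ac chromatin immunoprecipitation and sequencing (ChIP-seq) libraries, with 4 biological replicates in each arm, and the other 8 were input DNA and CoP-seq libraries that were not used here. The data were positions on hg38 in a list of 3507 lost regions, where H3K27ac decreased with OGTi, and a list of gained regions, where it increased. The lists hold no signal and the depth behind them is unknown, so the extent of the change and the replicate error are not known for any region. The labelled cell type could not be checked against marker genes in lists of positions, and all libraries came from a single cell line.

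H3K27ac, the acetylation of histone H3 on lysine 27, marks active promoters and enhancers. Long non-coding RNA (lncRNA) genes are transcribed and spliced much like coding genes, and their introns can hold enhancers that act on a neighbouring coding gene as well as the hairpins of microRNAs (miRNAs), which are cut out of the host transcript. ChIP-seq has no strand, so acetylation inside an annotated lncRNA does not show that this lncRNA is the target. Where several non-coding genes overlapped the centre of a region, 1 host was taken per region, with preference for a gene with a symbol and then for the longest one.

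The sequences below, all on the forward strand of hg38 and all within introns of the named host, show what the leading lost regions and the leading gained regions looked like at 2 motifs whose frequency differed between them. For each of the 10 hosts with the most lost regions, other than LINC02869 and SAMD12-AS1, the first TEAD match in a lost region is printed. It is given in capitals with 30 bases on either side. The TEAD motif, bound by the TEAD factors that recruit YAP1, was searched as ACATTCCA, ACATTCCT, GCATTCCA or GCATTCCT and their complements. These windows were chosen after their matches were known and serve as illustrations only.
LINC00840 (chr10:43843526-43843593): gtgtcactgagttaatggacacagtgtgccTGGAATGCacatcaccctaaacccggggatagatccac
LINC02615 (chr4:128321474-128321541): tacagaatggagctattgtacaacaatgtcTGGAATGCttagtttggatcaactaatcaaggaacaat
DIRC3 (chr2:217337704-217337771): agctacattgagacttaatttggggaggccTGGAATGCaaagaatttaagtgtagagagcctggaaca
DIRC3-AS1 (chr2:217278463-217278530): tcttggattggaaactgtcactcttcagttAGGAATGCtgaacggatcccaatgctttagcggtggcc
DELEC1 (chr9:115019059-115019126): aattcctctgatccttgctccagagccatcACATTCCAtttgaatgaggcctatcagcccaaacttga
ENSG00000286735 (chr3:120494832-120494899): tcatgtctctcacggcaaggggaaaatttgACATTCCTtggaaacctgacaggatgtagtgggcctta
ENSG00000255250 (chr11:86742468-86742535): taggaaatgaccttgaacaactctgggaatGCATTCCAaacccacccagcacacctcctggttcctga
SLC44A3-AS1 (chr1:94727013-94727080): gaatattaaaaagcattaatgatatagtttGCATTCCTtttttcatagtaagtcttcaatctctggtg

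For the hosts with the most gained regions, the first match of the composite ATF4-C/EBP element (TGATGCAA, a site for the stress-response factor ATF4 paired with a C/EBP factor) in a gained region is printed in the same way. Of the 10 leading gained hosts, 6 had such a match.
LINC-PINT (chr7:130919892-130919959): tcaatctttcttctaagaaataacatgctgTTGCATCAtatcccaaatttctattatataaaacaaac
ENSG00000258077 (chr12:75624011-75624078): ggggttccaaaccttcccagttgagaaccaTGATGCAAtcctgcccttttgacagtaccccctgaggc
ENSG00000228714 (chr9:115671737-115671804): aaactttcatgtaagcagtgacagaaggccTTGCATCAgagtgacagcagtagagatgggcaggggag
SPRY4-AS1 (chr5:142472544-142472611): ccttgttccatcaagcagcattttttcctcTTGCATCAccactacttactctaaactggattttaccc
ENSG00000285424 (chr6:4320282-4320349): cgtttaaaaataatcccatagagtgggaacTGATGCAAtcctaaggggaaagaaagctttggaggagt
ENSG00000258216 (chr12:90091352-90091419): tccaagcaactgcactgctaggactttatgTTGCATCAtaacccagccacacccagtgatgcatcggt

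A further set of 200-base windows was drawn by a rule that took no account of which motif differed. The widest region of each of the 4 leading hosts per direction was taken, and within it the stretch with the most matches of 12 searched motifs, shown in capitals. The windows of LINC00840 and LINC02869 held AP-1, SP/KLF and RUNX matches and TEAD and RUNX matches respectively, DIRC3 a CArG box, ENSG00000258077 an AP-1 match, SPRY4-AS1 a RUNX match, and LINC02615 and ENSG00000228714 a FOX match each. The widest LINC-PINT region held no match of the 12 motifs and is not printed.
LINC00840, lost (chr10:43867795-43867994): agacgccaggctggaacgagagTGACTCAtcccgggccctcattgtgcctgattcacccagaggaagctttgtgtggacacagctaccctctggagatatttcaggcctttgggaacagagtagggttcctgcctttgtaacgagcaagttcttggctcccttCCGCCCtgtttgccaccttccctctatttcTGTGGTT
LINC02615, lost (chr4:128354264-128354463): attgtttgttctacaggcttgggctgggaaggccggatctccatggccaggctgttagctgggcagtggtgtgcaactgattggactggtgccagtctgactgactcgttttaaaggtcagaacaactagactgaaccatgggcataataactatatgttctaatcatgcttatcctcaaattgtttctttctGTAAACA
DIRC3, lost (chr2:217551071-217551270): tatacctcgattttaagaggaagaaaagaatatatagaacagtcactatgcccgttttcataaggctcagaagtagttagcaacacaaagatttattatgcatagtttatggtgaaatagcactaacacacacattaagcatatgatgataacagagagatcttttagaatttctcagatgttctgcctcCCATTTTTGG
LINC02869, lost (chr1:218488987-218489186): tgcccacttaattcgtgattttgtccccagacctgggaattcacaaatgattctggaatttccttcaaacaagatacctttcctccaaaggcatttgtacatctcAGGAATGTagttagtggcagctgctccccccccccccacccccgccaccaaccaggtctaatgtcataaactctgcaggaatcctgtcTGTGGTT
ENSG00000258077, gained (chr12:75781632-75781831): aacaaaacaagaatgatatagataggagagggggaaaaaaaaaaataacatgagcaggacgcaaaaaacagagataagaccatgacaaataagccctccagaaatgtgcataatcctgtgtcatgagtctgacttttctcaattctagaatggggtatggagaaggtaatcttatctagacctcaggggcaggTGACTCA
ENSG00000228714, gained (chr9:115690439-115690638): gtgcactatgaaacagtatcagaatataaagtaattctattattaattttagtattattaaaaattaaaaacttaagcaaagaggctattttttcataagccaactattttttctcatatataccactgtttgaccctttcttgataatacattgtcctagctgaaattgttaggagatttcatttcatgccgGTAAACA
SPRY4-AS1, gained (chr5:142471032-142471231): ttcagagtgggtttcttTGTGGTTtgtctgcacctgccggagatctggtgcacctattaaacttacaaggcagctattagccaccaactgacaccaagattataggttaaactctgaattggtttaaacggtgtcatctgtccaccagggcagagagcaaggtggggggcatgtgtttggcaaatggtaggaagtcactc

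Loss of H3K27ac was more frequent than gain in these introns. Of the 635 members, 363 were lost and 272 were gained, so that 57.2% were lost (Wilson 95% interval 53.3% to 60.96%), against 49.2% of all listed regions and 48.4% of the 6495 regions that were not members (odds ratio 1.42, 95% exact interval 1.203 to 1.683, two-sided Fisher's exact test, p = 2.6e-05). The regions that were not members include 2219 within 2500 bp of a 5′ end, of which 33.8% were lost. The rule keeps such regions out of the members, so the difference from non-members in part restates the rule. All intervals given here cover counting error over regions only. Regions are not replicates of the treatment, and the p-values describe how the lists differ rather than the spread between cultures. In introns of protein-coding genes, 50.8% of 2618 regions were lost, a lower share than in the members (odds ratio 1.29, interval 1.08 to 1.55, Fisher's exact p = 0.00399). Intergenic regions were lost in 67.1% of 1385 cases, a higher share (odds ratio 0.655, interval 0.538 to 0.799, Fisher's exact p = 2.16e-05). The members therefore stood between coding introns and intergenic sequence, as the plot of lost shares by class shows. They made up 10.4% of the lost list and 7.51% of the gained list.

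**Figure D1:**
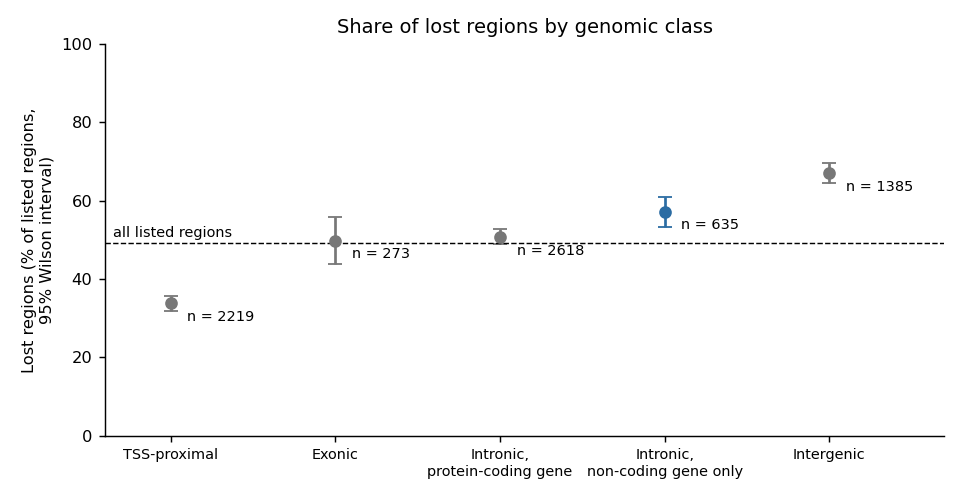
Share of lost regions (%, y axis) in each genomic class of the listed regions, with 95% Wilson intervals as bars and the number of regions beside each point. The members (blue) lie at 57.2%, above the dashed line of all listed regions at 49.2% and below the intergenic regions at 67.1%.

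Many members lay close to each other. Members whose centres followed each other within 50 kb formed 393 loci, of which 277 held a single region, 56 held several lost regions, 45 several gained regions and 15 both kinds. Counting 1 region per run of one direction left 229 lost and 180 gained runs, 55.99% lost. The share remained above that of the other listed regions, again with those at 5′ ends among them (45.2%, odds ratio 1.54, interval 1.25 to 1.90, Fisher's exact p = 3.89e-05). The differences from coding introns (odds ratio 1.25, Fisher's exact p = 0.0424) and from intergenic regions (odds ratio 0.767, p = 0.0293) also stayed past the threshold of 0.05. Runs of at least 5 regions numbered 11 among the lost and 5 among the gained members. Another listed region lay within 50 kb of 68.3% of lost and 67.3% of gained members (odds ratio 1.05, interval 0.738 to 1.49, Fisher's exact p = 0.797). The shares were 63.9% of lost and 62.4% of gained regions in coding introns, and 66.3% and 58.1% in intergenic regions. Among members with such a neighbour, the nearest one was itself lost for 228 of 248 lost members and for 15 of 183 gained members. Wide domains are cut into abutting regions in these lists, and 99 lost and 62 gained members abutted another member. Abutting regions were not counted in the other classes, so abutting is not shown to be particular to the members.

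The excess of loss over the other listed regions, which include those at 5′ ends, depended on which catalogue names a gene. Of the 635 members, 367 (57.8%) also had their centre in a non-coding and in no protein-coding gene of the RefSeq annotation, 244 (38.4%) were in no RefSeq gene, and 24 (3.78%) were in a RefSeq protein-coding gene. The RefSeq gene was not matched to the GENCODE host. Those 367 regions were lost in 52.6% of cases (Wilson interval 47.5% to 57.6%). This did not differ past the threshold from the regions that are not members (Fisher's exact p = 0.12). Those in no RefSeq gene were lost in 65.2% of cases (Wilson interval 58.99% to 70.9%). Accordingly, 53.2% of lost members and 63.97% of gained members had a RefSeq non-coding gene over their centre (odds ratio 0.639, interval 0.457 to 0.894, Fisher's exact p = 0.00735). Gained members also fell more often where several GENCODE non-coding genes overlap, at 17.3% against 8.54% of lost members (odds ratio 0.447, interval 0.266 to 0.744, Fisher's exact p = 0.00137). Regions of one locus were counted separately here, and this comparison was not repeated with 1 region per run.

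The 635 members lay in 351 host genes, of which 185 held lost members only, 144 gained members only and 22 both. A single member was found in 234 hosts, and 24 hosts held 5 or more. Nearly all hosts were annotated as lncRNA genes, with 345 of the 363 lost and 260 of the 272 gained members in one. By name, 90 hosts had a LINC symbol, 47 an antisense symbol and 17 the symbol of a divergent transcript, while 148 were known by an Ensembl identifier only. Hosts with an antisense symbol held 63 lost and 37 gained members, those of divergent transcripts 25 and 8, LINC genes 103 and 61, and genes with an identifier only 129 and 115. Over all members 57.2% were lost, and these counts by name were not tested.

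Among the hosts with the most lost regions, LINC00840 (chr10:43778946-43901004, + strand) came first. All 13 of its regions were lost, together 22.0 kb, between 64.5 and 120 kb from its 5′ end, and the nearest protein-coding start was that of the zinc finger gene ZNF32, 195 to 250 kb away. No listed region lay at the 5′ end of LINC00840 or at that of ZNF32. LINC02615 (chr4:128292751-128519398, +) held 8 lost regions and 1 gained region, with PGRMC2, a haem-binding membrane protein gene, as the nearest coding gene at 27.4 to 166 kb. DIRC3 (chr2:217284019-217756593, -) held 8 lost regions spread over 378 kb, and the overlapping gene DIRC3-AS1 (chr2:216694404-217336120, +) held 7 more. Regions centred in the overlap were given to DIRC3-AS1, the longer gene, so the split between them depends on that rule. Neither DIRC3 nor DIRC3-AS1 held a gained member, and a lost region also lay at the 5′ end of DIRC3-AS1.

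Genes on the study's myofibroblast lists were nearest to leading hosts of both directions. On the lost side, LINC02869 (chr1:218459265-218525978, +) held 7 lost regions within 21.0 kb, all with TGFB2, which encodes the ligand transforming growth factor beta 2, as the nearest coding gene at 130 to 149 kb. DELEC1 (chr9:114850968-115402644, +) held 6 lost regions, of which 5 lay 28.6 to 148 kb from the start of TNC, the gene of the matrix glycoprotein tenascin C, and the TNC start itself carried a lost region. ENSG00000286735 (chr3:120448974-120509675, +) held 5 lost regions at 19.1 to 47.4 kb from FSTL1, which encodes a secreted glycoprotein. Its 5′ end, which it shares with FSTL1 within 2500 bp, carried gained regions instead. The other leading lost hosts were SAMD12-AS1 with 7 regions, ENSG00000255250 with 5 regions at 43.6 to 51.9 kb from PRSS23, a serine protease gene, and SLC44A3-AS1 with 5, which GENCODE lists as a transcribed processed pseudogene.

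The hosts with the most gained regions were led by LINC-PINT (chr7:130791264-131110176, -), a lncRNA induced by p53. It held 14 gained regions, together 24.3 kb, at 148 to 219 kb from its 5′ end. Its 2 lost regions lay at 82.1 and 98.3 kb, so that lost and gained members did not interleave. The 5′ end of LINC-PINT also carried gained H3K27ac outside the members, so its lost regions lay between gained ones. ENSG00000258077 (chr12:75563202-75984015, -) held 11 gained regions over 357 kb and ENSG00000228714 (chr9:115324932-115744330, -) 8 within 99.4 kb. For 5 of the latter the nearest coding gene was PAPPA, a metalloproteinase that cleaves insulin-like growth factor binding proteins, and for the remaining 3 it was TNC, at 476 to 499 kb. PAPPA and TNC are both on the myofibroblast identity list. DELEC1 and ENSG00000228714 overlap on chromosome 9. The lost members of DELEC1 ended at 115267027, before the gained members of ENSG00000228714 began at 115593317. Other listed regions in DELEC1 were 4 lost and 2 gained. SPRY4-AS1 (chr5:142325209-142672001, +) held 6 gained regions at 30.7 to 146 kb from SPRY4, an inhibitor of receptor tyrosine kinase signalling, and the shared start of both genes was gained. ENSG00000285424 held 6, MIRLET7BHG 5, MIR100HG and MIR137HG 4 each, and ENSG00000258216 4 gained regions and 1 lost region. For ENSG00000258216 the nearest coding gene was ATP2B1, a calcium pump gene, at 22.8 to 382 kb. NR2F2-AS1 (chr15:96110040-96327361, -) held 5 gained regions at 5.92 to 50.2 kb from NR2F2, which encodes the nuclear receptor COUP-TFII and is also on the identity list, and the start of NR2F2 was gained too.

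**Figure D2:**
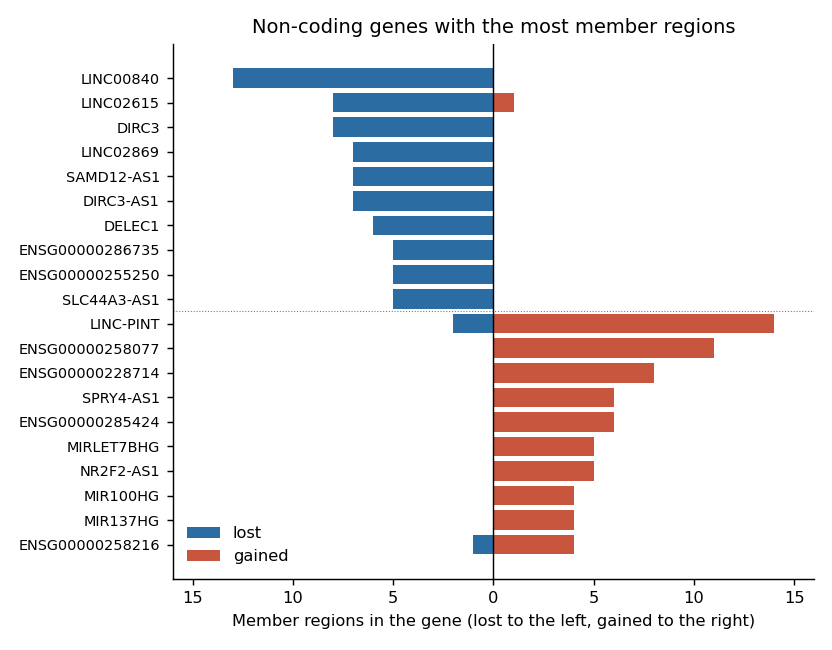
Number of member regions (x axis) in the 10 non-coding genes with the most lost regions (above the dotted line) and the 10 with the most gained regions (below it), lost regions to the left in blue and gained regions to the right in red. Only LINC02615, LINC-PINT and ENSG00000258216 of these 20 hosts held regions of both directions.

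**Figure D3:**
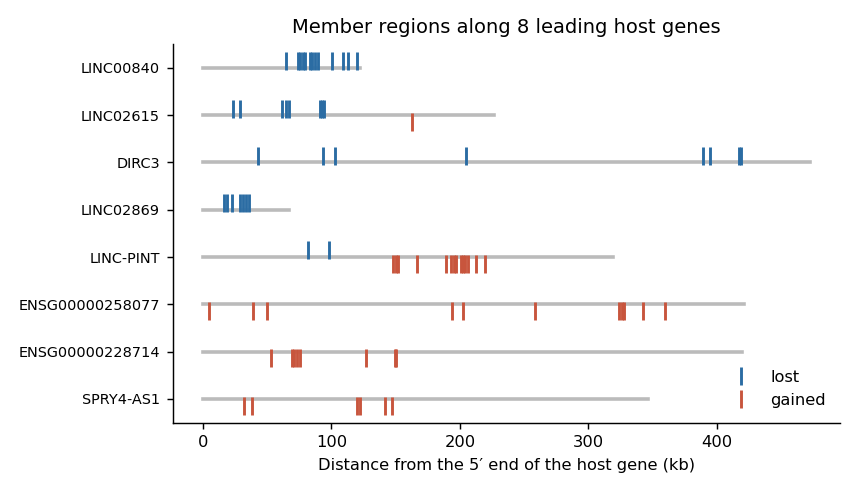
Position of each member region (centre, distance in kb from the 5′ end of the host gene) along the 4 leading hosts per direction, with the gene body in grey, lost regions in blue above the line and gained regions in red below it. The 2 lost regions of LINC-PINT lie nearer to its 5′ end than its 14 gained regions, and the single gained region of LINC02615 lies beyond its 8 lost ones.

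The 22 hosts with both directions were mostly small mixtures. ENSG00000288714 held 4 lost and 3 gained regions, more than 1000 kb from CITED2, FRMD6-AS2 held 3 lost and 2 gained, MAP4K3-DT 4 lost and 1 gained, PGAM1P5 3 lost and 1 gained, MSRB3-AS1 1 lost and 3 gained, and ENSG00000223725 2 of each. LINC00882 and PVT1 held 2 lost regions and 1 gained, IL12A-AS1 and MIR3681HG 1 lost and 2 gained. In FRMD6-AS2, the 3 lost regions lay 15.5 to 42.1 kb from the start of FRMD6 and the 2 gained regions 90.5 and 92.6 kb from it. In LINC00607, 1 lost region (258 kb from FN1) and 1 gained region (222 kb) were found, with FN1, the gene of fibronectin, as the nearest coding gene. A single region of each direction was also present in LINC00862, DRAIC, ENSG00000259199, SLC8A1-AS1, ENSG00000286481, ENSG00000288902, ENSG00000238282 and MIR646HG.

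Genes named as miRNA hosts held mostly gained members. Of 84 genes annotated with a MIR host symbol, 11 were hosts of members, 8 of them with gained members only, 1 (MIR583HG) with a lost member only and 2 (MIR3681HG and MIR646HG) with both. They held 24 gained regions and 3 lost ones, against 57.2% lost over all members. Beside MIRLET7BHG, MIR100HG and MIR137HG, MIR222HG held 3 gained regions, MIR29B2CHG 2, and MIR181A1HG, MIR4280HG and MIR5689HG 1 each. A list of 42 well-studied non-coding genes, of which 38 are annotated, had 6 hosts: 4 with gained members only (MIR29B2CHG, MIR100HG, NR2F2-AS1 and MIR222HG) and 2 with both (LINC-PINT and PVT1), with 29 gained and 4 lost regions. The LINC-PINT regions account for 14 of these gained regions. Other hosts also hold miRNA genes. The 18 hosts with a miRNA gene but no MIR host symbol held 22 lost and 28 gained members, of which LINC-PINT supplied 2 and 14. SLC44A3-AS1, with MIR378G, held 5 lost members, and ANKRD34C-AS1, with MIR184, held 3, both named here after their values were seen. None of these counts was tested.

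Several of these hosts carry miRNAs with the same seed, the bases 2 to 8 that pair with target messengers. LINC-PINT and MIR29B2CHG, on different chromosomes, hold the miR-29 family, known to repress collagen and other matrix messengers. MIRLET7BHG and MIR100HG both hold let-7 members, and MIR222HG the miR-221 and miR-222 pair. Mature sequences from RefSeq (GRCh38.p14) are printed 5′ to 3′ with the seed in capitals to show this sharing.
hsa-miR-29a-3p in LINC-PINT (chr7:130876748-130876769, -): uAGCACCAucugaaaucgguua
hsa-miR-29b-3p in LINC-PINT (chr7:130877467-130877489, -): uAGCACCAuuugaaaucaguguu
hsa-miR-29c-3p in MIR29B2CHG (chr1:207801865-207801886, -): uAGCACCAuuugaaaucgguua
hsa-let-7a-5p in MIR100HG (chr11:122146568-122146589, -): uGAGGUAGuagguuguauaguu
hsa-let-7b-5p in MIRLET7BHG (chr22:46113691-46113712, +): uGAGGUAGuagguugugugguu
hsa-miR-221-3p in MIR222HG (chrX:45746180-45746202, -): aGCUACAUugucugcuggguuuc
hsa-miR-222-3p in MIR222HG (chrX:45747036-45747056, -): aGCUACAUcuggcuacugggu
The nearest gained region lay 14.1 kb from miR-29a-3p in LINC-PINT, 46.2 kb from miR-29c-3p in MIR29B2CHG, 23.5 kb from let-7a-5p in MIR100HG, 27.4 kb from let-7b-5p in MIRLET7BHG, and 9.37 kb from miR-222-3p in MIR222HG. In MIR222HG (chrX:45745210-45770274, -) the 3 gained regions abutted each other, and its 5′ end carried gained regions as well. miRNA levels were not measured in these lists.

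The direction of a member was compared with that of a listed region at the 5′ end of its host. Such a region, within 2500 bp of the host start, was present for 9.64% of lost and 25.7% of gained members. For gained members the host start was gained in 69 cases and lost in 1. For lost members it was lost in 17 cases, gained in 16 and of both kinds in 2. The odds ratio of agreement was 73.3 (interval 9.62 to 3106, two-sided Fisher's exact test, p = 1.51e-09). A region at the host start is not a member but can abut one where a wide domain was cut. How often it did was not counted, and several members can share a host start. With each host counted once, by the direction of most of its members and without ties, lost hosts had 8 lost and 5 gained starts, and gained hosts 1 lost and 21 gained (odds ratio 33.6, interval 2.94 to 1558, Fisher's exact p = 0.000411). Within 5000 bp of the start, gained members had 100 gained and 1 lost starts and lost members 37 lost and 18 gained. That wider window can take in the members themselves, so part of its agreement was fixed in advance and no test is given. Over all listed TSS-proximal regions, 33.8% were lost. Hosts that share their start with a coding gene within 2500 bp held 24.8% of lost and 26.5% of gained members (odds ratio 0.916, interval 0.629 to 1.34, Fisher's exact p = 0.646).

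Members were also read against coding genes of fibrosis, and the direction depended on the list. Earlier work supplied 5 gene lists that the study examined, and each member was given to the nearest protein-coding start. For the fibrogenic myofibroblast list, 162 genes in the study's supplementary table and 1 fewer than its methods state, 22 lost members (6.06%) and 5 gained members (1.84%) had a listed gene nearest, against 3.24% of lost and 2.24% of gained regions that were not members. The heart, kidney and lung fibrosis list of 148 genes had 16 lost (4.41%) and 1 gained (0.368%) members, against 1.94% and 0.985% of the other regions. The liver fibrosis matrisome of 71 genes had 14 lost (3.86%) and 6 gained (2.21%), against 1.53% and 0.746%. The myofibroblast identity list of 129 genes leaned the other way as a share, with 34 lost (9.37%) and 31 gained (11.4%) members, against 4.48% and 4.60%. For the liver fibrosis list of 61 genes the counts were 2 lost (0.551%) and 1 gained (0.368%), against 1.08% and 0.985%. These shares were not tested, the 5 lists share genes, and several members can have the same nearest gene.

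Fibrillar collagen genes were among them. COL1A1, which encodes an alpha chain of collagen I, was nearest to 2 lost regions in ENSG00000249406, at 7.92 and 9.56 kb (chr17:50208643-50210456 and chr17:50210457-50211928), and COL1A2, the other chain, to 4 lost regions in ENSG00000285090 at 19.5, 47.0, 49.4 and 97.8 kb. No gained member had either gene nearest. However, the 5′ end of ENSG00000249406 carried listed regions of both directions, and that of COL1A1 was lost. COL3A1 was nearest to 1 lost region in ENSG00000223523 (165 kb), CXCL12, a chemokine gene, to 1 in ENSG00000287901 (85.2 kb), and THY1, which encodes a surface glycoprotein of fibroblasts, to 1 in USP2-AS1 (7.63 kb). On the gained side, COL6A3, a collagen VI chain gene, was nearest to 1 region in ENSG00000222022 (7.55 kb), LTBP1, whose product binds latent transforming growth factor beta, to 1 in LINC00486 (81.6 kb), DKK1, a Wnt inhibitor gene, to 1 in LNCAROD (172 kb), and VIM, the vimentin gene, to 1 in VIM-AS1 (11.4 kb). Over all members, the nearest coding start lay within 100 kb in 49.3% of lost cases and 46.3% of gained cases (odds ratio 1.13, interval 0.813 to 1.56, Fisher's exact p = 0.471).

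Lost members were wider than gained members. Median widths were 1962 bp (quartiles 1406 and 2413) and 1790 bp (quartiles 1209 and 2117), and the mean log2 width was 10.73 ± 0.75 (SD, n = 363 regions) against 10.48 ± 0.95 (SD, n = 272 regions). The difference of 0.25 had a 95% interval of 0.11 to 0.39 when regions of one locus were allowed to vary together. It did not differ past the threshold from that in coding introns (difference of differences 0.07, interval -0.09 to 0.23). Exactly 2000 bp was the width of 38 lost and 30 gained members, and 99 lost and 62 gained members abutted another member.

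GC content was also higher in lost members, at 43.8% ± 5.58 (SD, n = 363 regions) against 42.2% ± 6.06 (SD, n = 272 regions). The difference was 1.59 percentage points (interval 0.364 to 2.81) and 1.74 (0.488 to 2.99) with log2 width in the model. In coding introns, lost regions exceeded gained ones by 4.38 points (47.6% against 43.2%), and the difference in members minus that in coding introns was -2.79 points (interval -4.20 to -1.38). Against intergenic regions (2.37 points) the members did not differ past the threshold. The CpG observed/expected ratio was 0.178 ± 0.0806 (SD, n = 363 regions) in lost and 0.196 ± 0.112 (SD, n = 272 regions) in gained members, with an interval of the difference from -0.0382 to 0.00205.

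**Figure D4:**
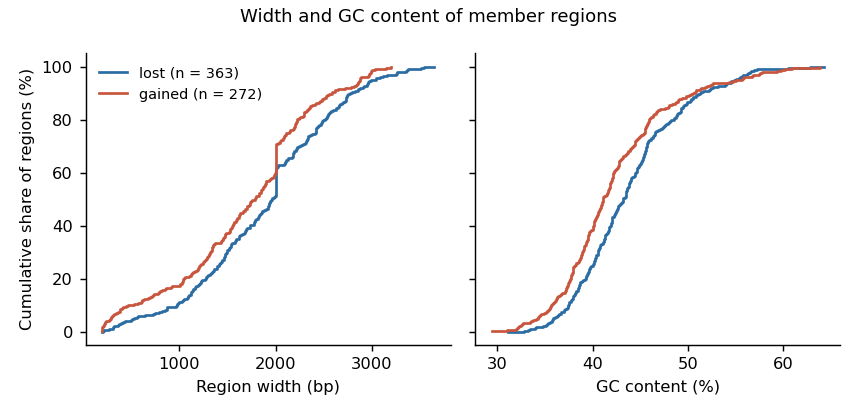
Cumulative share of lost (blue, n = 363) and gained (red, n = 272) members (%, y axis) by region width in bp (left) and by GC content in % (right). The lost curve lies to the right of the gained one over most of both ranges, and the vertical step at 2000 bp is the width shared by 38 lost and 30 gained members.

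Host length and position within the host did not differ past the threshold. Host genes had a median length of 162 kb for lost and 174 kb for gained members, and the mean difference on the log10 scale was 0.01 (interval -0.10 to 0.11). Lost members had their centre at a median of 74.3 kb from the host 5′ end (3.71 to 637 kb) and gained members at 55.7 kb (3.38 to 754 kb), with a difference of 0.05 on the log10 scale (interval -0.08 to 0.18). Expressed along the gene, the medians were 53.0% and 50.5% of its length.

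Motif matches were counted in the 1000 bp around the centre of each member, a window that exceeded the region itself for 87 members. Of 12 motifs, 3 differed between lost and gained members after Benjamini-Hochberg adjustment over the 12. TEAD matches, as printed above for 8 leading lost hosts, were present in 36.6% of lost and 21.7% of gained members, against 25.3% of all listed regions (odds ratio 2.09, interval 1.44 to 3.05, Fisher's exact test, adjusted p = 0.000306). Over whole regions there were 219 matches in 682 kb of lost and 103 in 454 kb of gained sequence, or 0.321 and 0.227 per kb. Within LINC00840, 4 of 13 regions held a match, in DIRC3 4 of 8, in LINC02869 3 of 7, and LINC-PINT held 6 matches in 16 regions of either direction. Leaving out TEAD matches followed by AGTGG (3 matches in lost and 3 in gained members) gave 36.1% and 20.6% (odds ratio 2.18, Fisher's exact p = 2.27e-05). The call was lost among the members that RefSeq also places in a non-coding gene, with an odds ratio of 1.79 (Fisher's exact adjusted p = 0.0507).

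ATF4-C/EBP matches showed the opposite direction, in 3.03% of lost and 12.1% of gained members, with 5.23% of all listed regions (odds ratio 0.226, interval 0.101 to 0.471, Fisher's exact adjusted p = 0.000131). In ENSG00000258077 and ENSG00000285424, 3 regions each held one. AP-1 matches (TGACTCA or TGAGTCA), sites of FOS and JUN dimers, were found in 28.7% of lost and 44.1% of gained members, and in 32.4% of all listed regions (odds ratio 0.509, interval 0.361 to 0.717, Fisher's exact adjusted p = 0.000306). This AP-1 difference depended on the window, since it did not pass the threshold over whole regions (41.6% against 49.6%, Fisher's exact adjusted p = 0.149) or in the central 500 bp (odds ratio 0.653, adjusted p = 0.13). Of the 22 comparisons of a motif's odds ratio with that in coding introns or in intergenic regions, that of AP-1 with coding introns was lower in members by a ratio of 0.657 (interval 0.455 to 0.948, not adjusted for the 22). In coding introns the odds ratios of TEAD and ATF4-C/EBP were 2.07 and 0.198. The members' odds ratios divided by these gave 1.01 (interval 0.678 to 1.51) and 1.14 (interval 0.502 to 2.59). Divided by those in intergenic regions, they gave 0.835 for AP-1 (interval 0.559 to 1.25), 1.37 for TEAD (interval 0.886 to 2.12) and 1.02 for ATF4-C/EBP (interval 0.426 to 2.45).

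**Figure D5:**
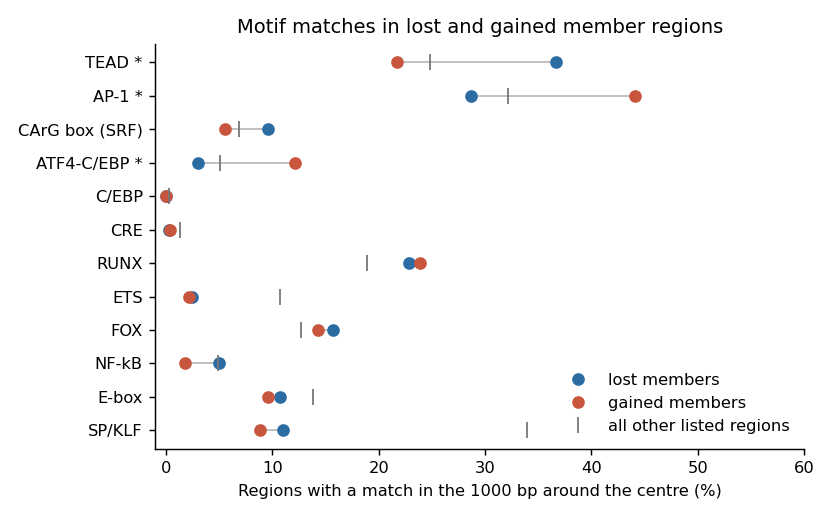
Share of regions with at least 1 match of each motif in the 1000 bp around the centre (%, x axis), for lost members (blue), gained members (red) and all other listed regions (grey ticks). Asterisks mark the 3 motifs past the adjusted threshold: TEAD (36.6% against 21.7%), AP-1 (28.7% against 44.1%) and ATF4-C/EBP (3.03% against 12.1%).

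The other 9 motifs did not differ past the threshold. The CArG box bound by SRF was found in 9.64% of lost and 5.51% of gained members (odds ratio 1.83, interval 0.948 to 3.68, Fisher's exact adjusted p = 0.176) and the NF-kB site in 4.96% and 1.84% (odds ratio 2.79, interval 0.979 to 9.71, adjusted p = 0.154). Over whole regions the NF-kB difference passed the threshold (9.37% against 3.31%, odds ratio 3.02, Fisher's exact adjusted p = 0.00928). RUNX (TGTGGTT) matches were found in 22.9% and 23.9%, FOX (TGTTTAC) in 15.7% and 14.3%, E-box (CACGTG) in 10.7% and 9.56%, and SP/KLF (GGGCGG) in 11.0% and 8.82%. ETS matches (CCGGAAG) were found in 2.48% and 2.21%. The CRE (TGACGTCA) was present in 1 lost and 1 gained member, and the C/EBP palindrome (TTGCGCAA) in none of either. SP/KLF and ETS matches, frequent at promoters, were found in 34.0% and 10.7% of the listed regions that were not members. A match is a string in the reference and not a bound site, and its absence says nothing of the factor.

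Members were found on 23 chromosomes. Chromosome 2 held the most, 55 lost and 27 gained. The lost share was lowest on chromosomes 12 (12 of 47 members, 25.5%, against 40.8% of all listed regions there) and 7 (8 of 31, 25.8%, against 39.9%) among those with at least 20 members, and highest on chromosome 4 (24 of 32 members, against 43.4%). ENSG00000258077 alone supplied 11 of the 35 gained members of chromosome 12, and LINC-PINT 14 of the 23 of chromosome 7.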

How the data were processed

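H3K27ac was measured by ChIP-seq in LX-2 cells given DMSO or OGTi, 4 libraries each. Per the study's methods, the authors aligned reads to hg38, called peaks per library with MACS2 (2.1.1.20160309) against input DNA, removed duplicates and blacklisted regions, and compared the arms with MAnorm2 in bins, so that wide domains are cut into abutting regions. The deposited lists have 3 columns (chromosome, start, end) and no per-sample values. Their names give an adjusted p threshold of 0.15, but the study's methods give a stricter value.

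Coordinates were converted to count from 1. Genes came from GENCODE release 44 (62700 genes, hg38), a later release than the study's, and a second annotation and miRNAs from RefSeq (GRCh38.p14). Lost and gained members were set against each other by Fisher's exact test (two-sided) with conditional exact odds ratio intervals, and widths, GC content and distances by least squares with intervals clustered on loci (scipy 1.17.1, statsmodels 0.14.6, pysam 0.24.0, Python 3.11.15). Shares carry Wilson intervals. Motifs were searched on both strands. Scripts were tested on simulated data. Alternatives are listed in the closing section. Hosts named in the text are the 10 per direction with the most members (ties by summed width, which left out 3 hosts with 5 lost and 3 with 4 gained members), the listed or miRNA hosts and those with both directions. The genes of fibrosis named beside them, the RefSeq comparison and the motif windows around matches were picked after values were seen. The window around 1 match is not reported here. The members and lists were chosen with earlier results of these data known.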

Additional observations from a re-analysis of the deposited data

How the results depend on the processing

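Of 183 alternative values, 163 were classed as the same in direction and side of the threshold. For the set of 12 motifs that class also held settings with other calls. Only 2 motifs were called in the central 500 bp and among members that RefSeq also places in a non-coding gene. Over whole regions NF-kB took the place of AP-1 among the 3 called. The lost share of members, 57.2%, lay between 55.7% and 57.9% with 1 region per run, 5′ ends of all transcripts, a 5000 bp window, whole regions inside the gene, lncRNA hosts alone, without chromosome 2 and without LINC00840 and LINC-PINT. It fell to 52.6% (Fisher's exact p = 0.12) for members that RefSeq also places in a non-coding gene, where the TEAD odds ratio was 1.79 (adjusted p = 0.0507). AP-1 lost its call over whole regions (odds ratio 0.723) and in the central 500 bp (0.653), and NF-kB gained one over whole regions (3.02). The other changes were of sign, in values that passed no threshold in either setting. The host length difference was -0.0029 with the 5000 bp window, -0.0018 for lncRNA hosts and -0.0202 without chromosome 2. The odds ratio of a listed neighbour was 0.97 with 1 region per run, 0.992 for lncRNA hosts, 0.986 without chromosome 2 and 0.954 for RefSeq genes. In the central 500 bp, RUNX had 1.12, FOX 0.788 and SP/KLF 0.875. ETS had 0.782 with 1 region per run and 0.828 over whole regions, E-box 0.948 over whole regions and 0.839 for RefSeq genes, and NF-kB 0.715 for RefSeq genes. The cause of these changes was not tested. The RefSeq subset, the removal of the leading hosts and the removal of TEAD matches followed by AGTGG were chosen after seeing the data. The C/EBP odds ratio could not be given.

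No paired analysis was possible because replicate values are absent from the lists. Leaving out a replicate and a stricter list threshold could not be run for the same reason, and repeat content was not compared because the reference used marks no repeats. The depth behind each region is unknown, so that nothing can be said of regions outside the lists.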
